A study of Mus musculus with 12 samples.

Results

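The 10 genes described here encode receptors and receptor-like proteins of B cells that are grouped as inhibitory: Fcgr2b, Cd22, Cd72, Siglecg, Btla, Lair1, Pirb, Fcrl1, Fcrla and Cd300lf. They were chosen by symbol, as every probe set of the array annotated to one of these names, out of 18193 genes with a probe set of their own. The 10 genes held 20 probe sets of a single gene, and 3 further probe sets are annotated to Pirb together with near-identical genes of its family. RNA came from mouse splenic B cells, isolated by removing CD43-positive cells with magnetic beads to a stated purity above 98%, and was measured on Affymetrix arrays of the whole mouse transcriptome. The 4 groups were stimulated transgenic cells (EFLmDREAM, kept for 2 days with lipopolysaccharide at 20 µg/ml and interleukin 4 at 10 ng/ml), stimulated wild type cells (the same treatment), unstimulated transgenic cells (EFLmDREAM, day 0) and unstimulated wild type cells (day 0). Each group held 3 arrays from independent biological replicates, 12 arrays in all. EFLmDREAM is a transgene of DREAM, the calcium-binding protein encoded by Kcnip3, which also binds DNA as a transcriptional repressor. The promoter that drives the transgene and the age of the mice are not given in the sources used here.

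Inhibitory receptors set the threshold at which the B cell antigen receptor signals. Most carry an immunoreceptor tyrosine-based inhibitory motif (ITIM) in the cytoplasmic tail, which is phosphorylated by Src family kinases and then holds the phosphatases SHP-1 (Ptpn6), SHP-2 (Ptpn11) or SHIP-1 (Inpp5d) close to the antigen receptor. Their ligands differ: immune complexes for FcγRIIB, sialic acid for CD22 and Siglec-G, semaphorin CD100 for CD72, HVEM for BTLA, collagen for LAIR-1 and MHC class I for PIR-B. The group name does not cover every member equally, since FCRL1 is known as a co-activating receptor and FCRLA is an intracellular protein without an ITIM.

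Levels below are the deposited log2 values of a probe set. Each change is a limma estimate on the log2 scale ± SE, with a Benjamini-Hochberg adjusted p over all 45037 probe sets tested, called under 0.05. Where a gene has several probe sets, the brightest on average stands for it. The array medians lay between 5.36 and 5.41 in the 6 stimulated arrays and between 5.97 and 6.05 in the 6 unstimulated ones, and the median deposited change of all probe sets with stimulation was −0.40 in both genotypes. Stimulation changes were therefore taken after quantile normalization over the 12 arrays, which brought that median to 0.04 in each genotype. Unstimulated wild type replicate 1 stood apart in the 5′ minus 3′ signal of the actin and GAPDH controls, at −2.22 and −1.78, against −1.36 to −0.43 and −0.38 to 0.02 in the other 11 arrays. The 2 Kcnip3 probe sets were not called between the genotypes (adjusted p = 0.976 and 0.98 in stimulated cells, 0.279 and 0.612 in unstimulated cells), and whether they read the transgene is not given, so they do not check the labels. All 8 measured B cell markers had group means above the array medians in every group. Their summed level was 13.68 to 13.88 in stimulated transgenic and 13.66 to 13.83 in stimulated wild type cells. It was 15.22 to 15.29 in unstimulated transgenic and 15.10 to 15.43 in unstimulated wild type cells. Cd79b read 11.83 to 11.94 in stimulated transgenic and 11.79 to 11.94 in stimulated wild type cells. It read 12.79 to 12.87 in unstimulated transgenic and 12.70 to 13 in unstimulated wild type cells. Cd79a read 11.31 to 11.76 in stimulated transgenic and 10.62 to 11.38 in stimulated wild type cells. It read 12.87 to 13.01 in unstimulated transgenic and 12.45 to 13.17 in unstimulated wild type cells.

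All 10 receptor genes were lower with stimulation in both genotypes, except that Fcgr2b in transgenic cells turned higher with array medians subtracted. The fall was called for 10 of 10 genes in transgenic cells, where 23.3% of all genes were called lower, and for 10 of 10 in wild type cells, where 24% were. The median change of the 10 genes was −2.37 in transgenic and −2.26 in wild type cells, beside 0.08 over all genes in each; with array medians subtracted it was −1.59 in transgenic and −1.65 in wild type cells, beside 0.28 and 0.26 over all genes. On this scale Fcrla fell most in both genotypes, and Fcgr2b in transgenic and Lair1 in wild type cells fell least. The order depends on the scaling: Pirb (−2.98) fell slightly more than Fcrla (−2.94) in transgenic cells on deposited values, as it did with array medians subtracted (−2.34 and −2.30), and under both scalings Cd300lf fell least in wild type cells (−0.99 and −0.37). Of the 20 single-gene probe sets, 19 were called lower in each genotype, beside 25.1% of all probe sets in transgenic and 26.1% in wild type cells, and the exception was a dim Fcgr2b probe set, 1447622_at. After quantile normalization, 7 of 8 B cell markers were also called lower in each genotype, with medians of −1.70 in transgenic and −1.85 in wild type cells. Follicular B cell markers were lower for 5 of 5 in transgenic (median −4.12) and 4 of 5 in wild type cells (median −3.22). Of 10 marginal zone B cell markers, 8 were lower and 1 higher in transgenic cells (median −1.25). In wild type cells 5 were lower and 3 higher (median −0.61). No group was kept for 2 days without the stimulus, so changes with stimulation cannot be told apart from changes with time in culture. These bulk measurements do not separate fewer cells of a type from less RNA per cell.

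Genotype differences were called for a minority of the receptors, in both directions. In stimulated cells Fcgr2b and Fcrla were higher and Cd300lf was lower in the transgenic group, 3 of 10 genes, against 2.34% of all genes called. In unstimulated cells Lair1, Pirb and Fcrl1 were higher and Fcrla was lower, 4 of 10, against 10.4% of all genes. The median genotype difference of the 10 genes was 0.22 in stimulated cells (all genes 0) and −0.04 in unstimulated cells (all genes 0.01). The 3 arrays of each genotype did not overlap for 7 of the 10 genes in stimulated cells, 5 with transgenic higher, beside 22% of all genes, and for 9 of 10 in unstimulated cells, 4 with transgenic higher, beside 25.4%.

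**Figure D1:**
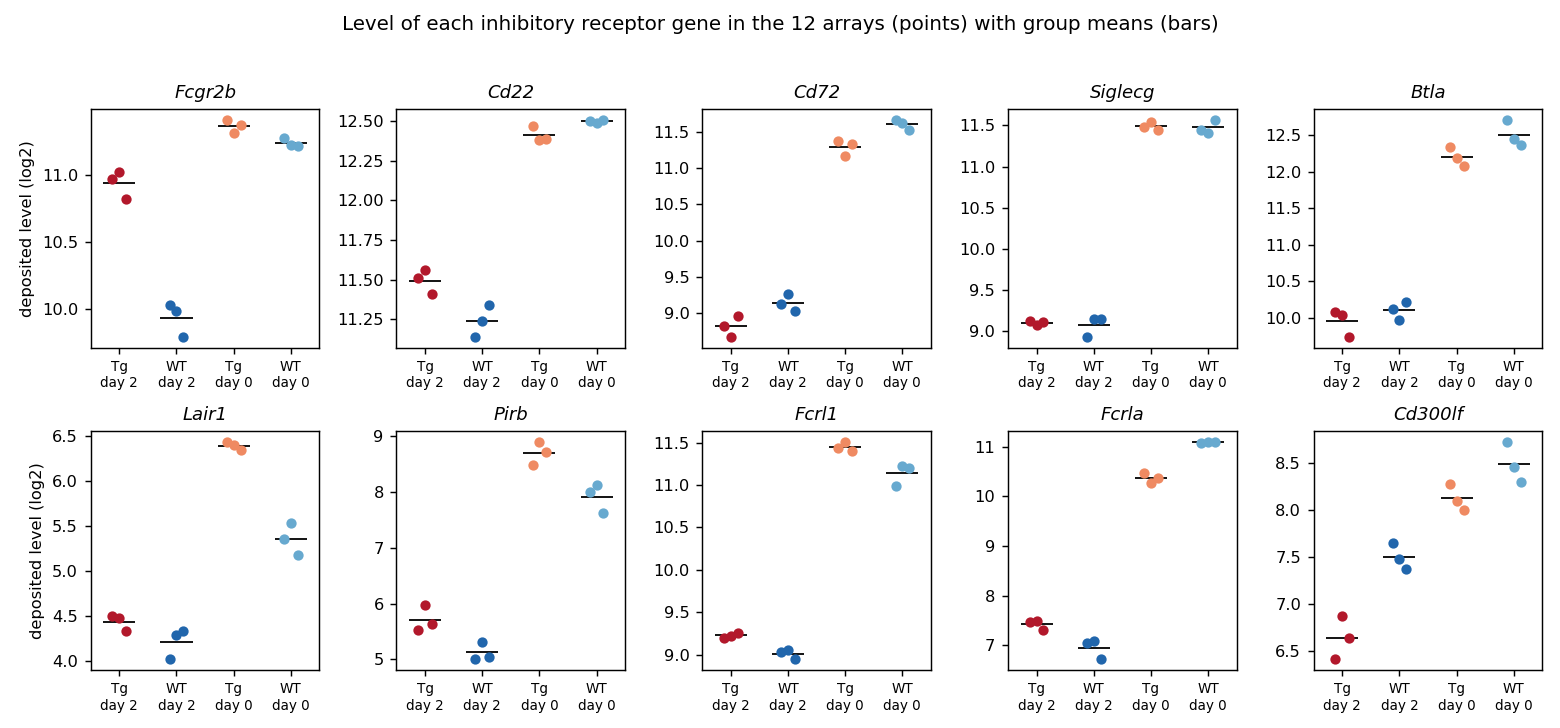
Deposited log2 level of the probe set standing for each of the 10 receptor genes (vertical axis, a separate scale in each panel) in the 12 arrays; points are arrays and bars are means of the 3 arrays of a group. In every panel the stimulated groups lie below the unstimulated groups of the same genotype, and in the Fcgr2b panel stimulated transgenic arrays (10.82 to 11.02) lie above stimulated wild type arrays (9.79 to 10.03).

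Fcgr2b encodes FcγRIIB, the only inhibitory Fc receptor for IgG and the brake that immune complexes apply to B cells through SHIP-1. Its level was 10.97, 11.02 and 10.82 in stimulated transgenic cells, against 10.03, 9.98 and 9.79 in stimulated wild type cells. It was 11.41, 11.31 and 11.37 in unstimulated transgenic cells, against 11.27, 11.22 and 11.21 in unstimulated wild type cells. The stimulated groups were separated by a wide gap, the unstimulated groups by a gap narrower than the spread within either group. In stimulated cells Fcgr2b was 2.00-fold higher in the transgenic group (log2 1.00 ± 0.083, adjusted p = 1.88e-05). In unstimulated cells the difference was not called (0.13 ± 0.083, 95% interval −0.05 to 0.31, adjusted p = 0.374). Fcgr2b fell with stimulation by 0.72 ± 0.085 in transgenic cells (adjusted p = 9.19e-06) and fell by 1.54 ± 0.085, or 2.90-fold, in wild type cells (adjusted p = 6.32e-09). With array medians subtracted in place of quantile normalization the transgenic change turned to 0.21 (adjusted p = 0.0387), so the direction of Fcgr2b in transgenic cells depends on the scaling. The wild type change kept its direction there but was smaller, at −0.68.

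Fcgr2b has 4 further probe sets of its own. Of these, 1455332_x_at and 1435476_a_at were higher in stimulated transgenic cells by 0.86 and 0.80 (adjusted p = 8.69e-06 and 1.67e-05). A further probe set, 1451941_a_at, read 9.70, 9.59 and 9.92 in stimulated transgenic cells, against 8.66, 8.75 and 8.75 in stimulated wild type cells, a difference of 1.02 ± 0.11 (adjusted p = 0.000329). This probe set was also called higher in unstimulated transgenic cells (0.54 ± 0.11, adjusted p = 0.0111). The probe set standing for the gene, 1455332_x_at and 1435476_a_at were not called there. Its mean level over the 12 arrays (9.62) was near those of 1455332_x_at (9.93) and 1435476_a_at (9.88). The dim 1447622_at stayed between 3.30 and 4.03 in all arrays and was called in no comparison. Fcgr3, the activating IgG receptor of similar extracellular sequence, read 5.78, 6.34 and 5.86 in stimulated transgenic cells and 5.27, 5.50 and 5.21 in stimulated wild type cells, near the array medians, and its part in the signal of Fcgr2b probe sets was not tested.

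Cd22 encodes the sialic acid-binding receptor CD22 (Siglec-2), which recruits SHP-1 to the antigen receptor. It read 11.51, 11.56 and 11.41 in stimulated transgenic cells, against 11.14, 11.24 and 11.34 in stimulated wild type cells. In unstimulated cells it read 12.47, 12.38 and 12.39 in the transgenic group, against 12.50, 12.49 and 12.51 in the wild type group. The transgenic arrays were all above the wild type arrays in stimulated cells and all below them in unstimulated cells, by small margins. Neither difference was called (0.25 ± 0.075, adjusted p = 0.136 in stimulated cells, and −0.09 ± 0.075, adjusted p = 0.531 in unstimulated cells). Cd22 fell with stimulation by 1.12 in transgenic and fell by 1.48 in wild type cells, and with array medians subtracted the changes were −0.28 in transgenic and −0.64 in wild type cells. Its second probe set, 1419769_at, fell by 1.78 in transgenic and fell by 1.89 in wild type cells and was not called between the genotypes. In unstimulated wild type cells it read 10.11, 11.04 and 10.75, where replicate 1 was the array of low 5′ signal. Without that array the wild type fall was 2.19. The unstimulated genotype difference was 0.28 with that array and 0.02 without it.

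Siglecg encodes Siglec-G, the other sialic acid receptor of B cells, best known for restraining B-1 cells. It read 9.12, 9.07 and 9.11 in stimulated transgenic cells, against 8.93, 9.15 and 9.15 in stimulated wild type cells. It read 11.48, 11.54 and 11.45 in unstimulated transgenic cells, against 11.45, 11.41 and 11.57 in unstimulated wild type cells. The genotypes overlapped in both states, and the 95% intervals of the difference were −0.15 to 0.20 in stimulated and −0.16 to 0.19 in unstimulated cells. Siglecg was 5.75-fold lower with stimulation in transgenic cells and 5.94-fold lower in wild type cells.

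Cd72 encodes a C-type lectin receptor with an ITIM that binds SHP-1. It read 8.82, 8.67 and 8.95 in stimulated transgenic cells, against 9.12, 9.26 and 9.03 in stimulated wild type cells. It read 11.38, 11.17 and 11.34 in unstimulated transgenic cells, against 11.67, 11.62 and 11.53 in unstimulated wild type cells. Every transgenic array lay below every wild type array of its state, by a similar amount: −0.32 ± 0.095 in stimulated cells (adjusted p = 0.133) and −0.31 ± 0.095 in unstimulated cells (adjusted p = 0.0589). The unstimulated difference was called lower under quantile normalization (adjusted p = 0.0382), with array medians subtracted (0.0374), with a filter on dim probe sets (0.0486), with a trended and robust prior (0.0437), with gene means (0.0375) and without wild type replicate 3 (0.0418). Cd72 was 6.04-fold lower with stimulation in transgenic and 6.38-fold lower in wild type cells.

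Btla encodes an inhibitory receptor of B and T cells that binds HVEM, the product of Tnfrsf14. It read 10.08, 10.04 and 9.74 in stimulated transgenic cells, against 10.12, 9.97 and 10.21 in stimulated wild type cells. In unstimulated cells it read 12.33, 12.18 and 12.07 in the transgenic group, against 12.71, 12.44 and 12.37 in the wild type group. The stimulated groups overlapped, and the unstimulated difference of −0.31 ± 0.12 was not called (adjusted p = 0.122). Btla fell with stimulation 5.17-fold in transgenic and 5.87-fold in wild type cells. Tnfrsf14 was called higher in unstimulated transgenic cells (0.61 ± 0.13, adjusted p = 0.00877).

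Lair1 encodes a collagen receptor with ITIMs that many leukocytes carry. It read 4.50, 4.48 and 4.33 in stimulated transgenic cells, against 4.02, 4.29 and 4.33 in stimulated wild type cells, below the array medians and with no gap between the genotypes. In unstimulated cells it read 6.44, 6.40 and 6.35 in the transgenic group, against 5.36, 5.54 and 5.18 in the wild type group. The unstimulated transgenic arrays stood about a full log2 unit above the wild type ones, the largest unstimulated genotype difference among the 10 genes at 2.05-fold (1.04 ± 0.11, adjusted p = 6.43e-05). The 2 other Lair1 probe sets were also higher there, by 0.63 and 0.39 (adjusted p = 0.00799 and 0.0112). Lair1 fell with stimulation by 1.37 in transgenic and fell by 0.61 in wild type cells (1.96 and 1.15 lower on deposited values). Its stimulated levels lay among the dim probe sets, below the array medians. Whether the array's floor limits the size of the fall was not tested.

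Pirb encodes PIR-B, an ITIM receptor for MHC class I expressed on B cells and myeloid cells. It read 5.53, 5.97 and 5.64 in stimulated transgenic cells, against 5.01, 5.32 and 5.05 in stimulated wild type cells. It read 8.47, 8.89 and 8.71 in unstimulated transgenic cells, against 7.99, 8.12 and 7.62 in unstimulated wild type cells. The transgenic arrays were above the wild type arrays in both states. The unstimulated difference was called (1.72-fold, 0.78 ± 0.15, adjusted p = 0.00743), and the stimulated one of 0.59 ± 0.15 was not (adjusted p = 0.0878), although it was with the replicate number as a block (adjusted p = 0.0133). Pirb fell with stimulation 6.18-fold in transgenic and 4.77-fold in wild type cells. Of the 3 probe sets shared with other genes of the PIR family, which cannot be assigned to Pirb, 2 were called higher in unstimulated transgenic cells (0.77 and 1.52) and 1 was not (0.32, adjusted p = 0.218).

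Cd300lf encodes CLM-1, an ITIM receptor of the CD300 family known mainly from myeloid cells. It read 6.42, 6.87 and 6.64 in stimulated transgenic cells, against 7.65, 7.48 and 7.37 in stimulated wild type cells. In unstimulated cells it read 8.27, 8.09 and 8 in the transgenic group, against 8.72, 8.45 and 8.29 in the wild type group. The transgenic arrays lay below the wild type arrays in both states, with the wider gap in stimulated cells. The stimulated difference was called at 1.81-fold lower (−0.86 ± 0.13, adjusted p = 0.00428), and the unstimulated one was not (−0.37 ± 0.13, adjusted p = 0.111). Cd300lf was 2.07-fold lower with stimulation in transgenic and 1.60-fold lower in wild type cells.

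Fcrl1 encodes an Fc receptor-like protein of the B cell surface whose tail carries activating-type motifs. It read 9.20, 9.22 and 9.26 in stimulated transgenic cells, against 9.03, 9.05 and 8.95 in stimulated wild type cells. It read 11.44, 11.51 and 11.40 in unstimulated transgenic cells, against 10.99, 11.22 and 11.20 in unstimulated wild type cells. The transgenic arrays were higher in both states, and only the unstimulated difference was called (1.24-fold, 0.31 ± 0.078, adjusted p = 0.0245). Leaving out wild type replicate 1, the array of low 5′ signal, ended that call (0.24, adjusted p = 0.0807), as did leaving out any 1 of the 3 transgenic replicates (adjusted p = 0.0667, 0.083 and 0.0547 without replicates 1, 2 and 3) and fitting only the 6 unstimulated arrays (0.113). The second Fcrl1 probe set, 1425063_at, read 8.29, 8.20 and 8.28 in stimulated transgenic cells, against 7.55, 7.49 and 7.45 in stimulated wild type cells. At that probe set the difference was called in both states (0.76 ± 0.09, adjusted p = 0.000509 in stimulated cells, and 0.32 ± 0.09, adjusted p = 0.0431 in unstimulated cells). Fcrl1 fell with stimulation by 2.37 in transgenic and fell by 2.27 in wild type cells.

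Fcrla encodes an Fc receptor-like protein that stays inside the B cell and binds immunoglobulin there. It read 7.48, 7.5 and 7.31 in stimulated transgenic cells, against 7.05, 7.08 and 6.73 in stimulated wild type cells. It read 10.47, 10.28 and 10.37 in unstimulated transgenic cells, against 11.08, 11.10 and 11.09 in unstimulated wild type cells. The genotypes changed places: transgenic arrays were the higher ones in stimulated cells and the lower ones in unstimulated cells. Both differences were called, at 1.39-fold higher in stimulated cells (0.48 ± 0.099, adjusted p = 0.0265) and 1.64-fold lower in unstimulated cells (−0.72 ± 0.099, adjusted p = 0.000622). The stimulated call ended when wild type replicate 3 was left out (0.37, adjusted p = 0.103), and likewise without transgenic replicates 1 or 2 (adjusted p = 0.1 and 0.119) and in a fit of only the 6 stimulated arrays (0.0742). Fcrla fell with stimulation 7.25-fold in transgenic cells and 16.5-fold in wild type cells.

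The other Fcrla probe sets did not all follow in unstimulated cells. Probe set 1419908_at read 6.74, 6.70 and 6.83 in the transgenic group, against 7.79, 7.72 and 7.45 in the wild type group, a difference of −0.90 ± 0.091 (adjusted p = 6.05e-05). Probe set 1425802_a_at read 10.74, 10.94 and 10.87 in the transgenic group, against 10.55, 11.04 and 11.05 in the wild type group, where replicate 1 was the array of low 5′ signal. Its difference was −0.03 (adjusted p = 0.916) with that array and −0.20 (adjusted p = 0.281) without it. In stimulated cells the same probe set was higher in the transgenic group by 0.50 ± 0.12, not called without the replicate block (adjusted p = 0.0663) and called with it (adjusted p = 0.0244).

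**Figure D2:**
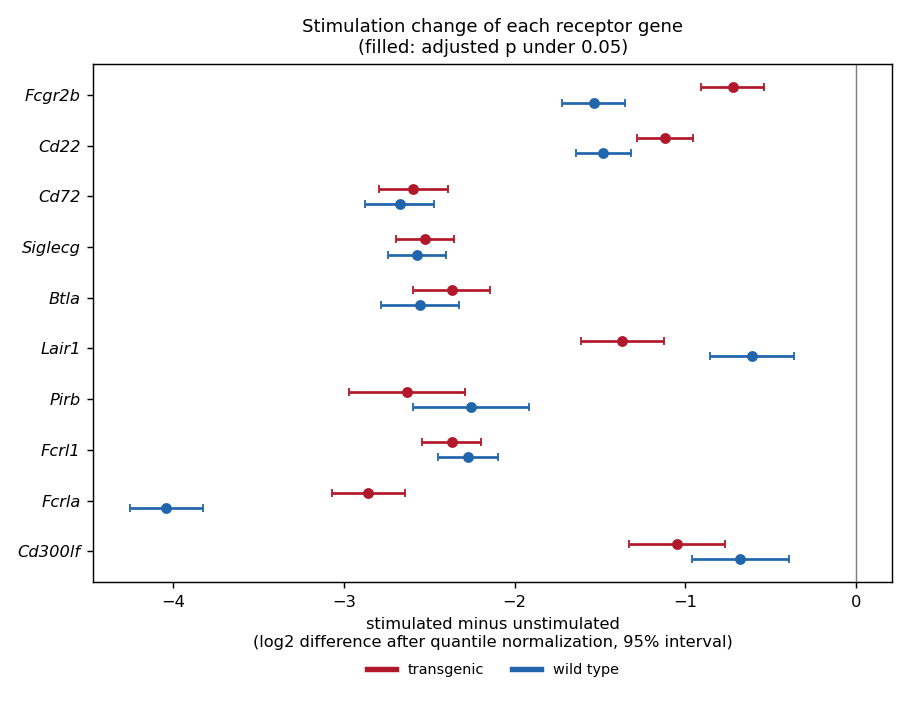
Change with stimulation of each receptor gene (horizontal axis, stimulated minus unstimulated, log2 after quantile normalization) in transgenic and wild type cells; points are limma estimates from 3 arrays per group, bars are 95% intervals, and filled points have an adjusted p under 0.05. All 20 points lie left of 0, between −4.04 and −0.61; with array medians subtracted, Fcgr2b in transgenic cells lies right of 0 at 0.21.

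**Figure D3:**
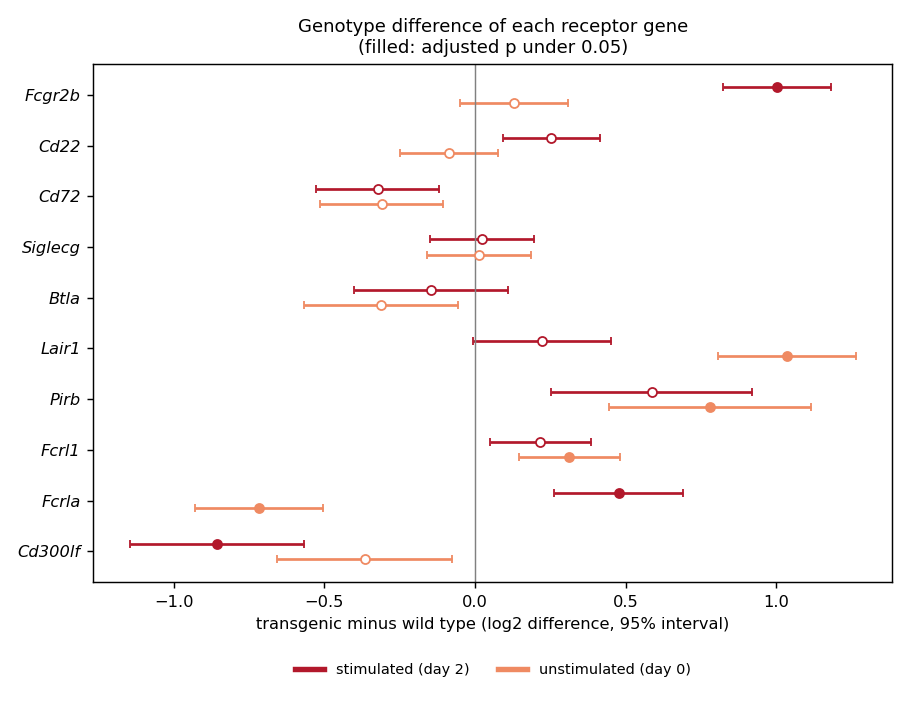
Genotype difference of each receptor gene (horizontal axis, transgenic minus wild type, log2 of deposited values) in stimulated and unstimulated cells; points are limma estimates from 3 arrays per group, bars are 95% intervals, and filled points have an adjusted p under 0.05. Fcgr2b in stimulated cells (1.00) and Lair1 in unstimulated cells (1.04) lie farthest right, and Fcrla lies on opposite sides of 0 in the 2 states.

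Whether the genotype difference itself depended on the state was tested by the interaction, the stimulation change in transgenic cells minus that in wild type cells. It was called for 3 of the 10 genes, against 1.98% of all genes. Fcrla had the largest interaction at 1.19 ± 0.14 (95% interval 0.89 to 1.49, adjusted p = 0.000989), and Fcgr2b followed at 0.87 ± 0.12 (0.62 to 1.13, adjusted p = 0.00233). Both genes fell less with stimulation in transgenic than in wild type cells. Lair1 had an interaction of −0.81 ± 0.15 (−1.14 to −0.49, adjusted p = 0.0167). Its mean level lay below the array medians in both stimulated groups and in unstimulated wild type cells. Whether the array's floor limits its measured fall in either genotype was not tested. The Lair1 call was lost without stimulated wild type replicate 2 (−0.78, adjusted p = 0.055) or replicate 3 (−0.76, adjusted p = 0.0509). The interaction of Siglecg was 0.01 with an interval of −0.23 to 0.25, and those of Cd22 (0.34 ± 0.11, adjusted p = 0.16) and Cd300lf (−0.49, adjusted p = 0.275) were not called.

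At the level of probe sets, 5 of 20 were called with a positive and 1 with a negative interaction, against 1.58% of all probe sets called. Besides the probe sets above they were 1455332_x_at and 1435476_a_at of Fcgr2b (0.66 and 0.63, adjusted p = 0.00303 and 0.00372) and 1419908_at of Fcrla (1.32, adjusted p = 0.000225). The other probe sets of these genes were not called, and 2 of them were called without unstimulated wild type replicate 1. Fcgr2b probe set 1451941_a_at had an interaction of 0.48 (adjusted p = 0.2), and 0.58 (adjusted p = 0.0786) without that array. Lair1 probe set 1439067_at had −0.41 (adjusted p = 0.125), and −0.37 (adjusted p = 0.184) without it. Fcrla probe set 1425802_a_at had an interaction of 0.53 (adjusted p = 0.192), which was 0.70 (adjusted p = 0.0148) without unstimulated wild type replicate 1. Lair1 probe set 1444040_at had −0.71 (adjusted p = 0.0732), and −0.81 (adjusted p = 0.0371) without the same array.

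**Figure D4:**
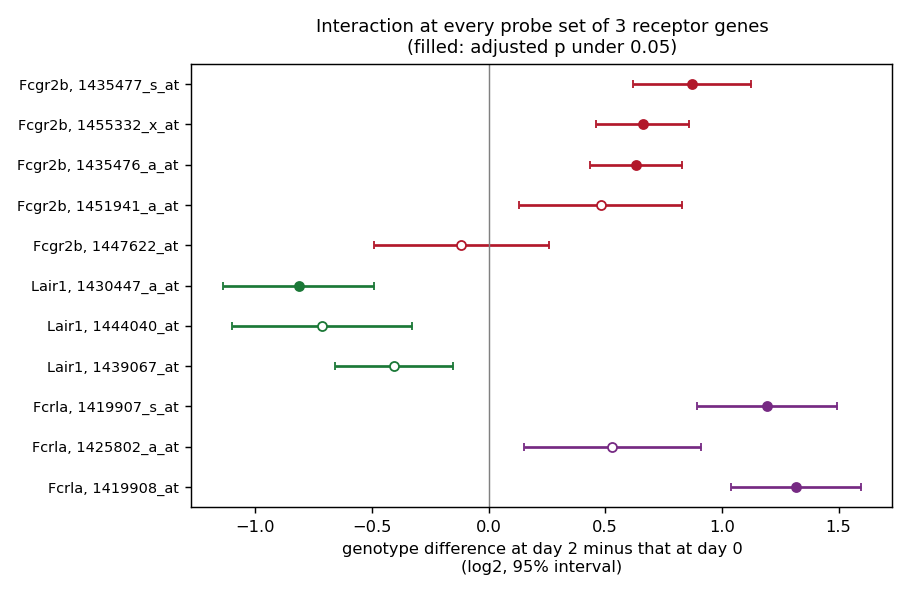
Interaction at every single-gene probe set of Fcgr2b, Lair1 and Fcrla (horizontal axis, genotype difference in stimulated cells minus that in unstimulated cells, log2); bars are 95% intervals and filled points have an adjusted p under 0.05. The 3 called Fcgr2b probe sets lie between 0.63 and 0.87 and the 2 called Fcrla probe sets at 1.19 and 1.32, while all 3 Lair1 probe sets lie below 0.

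For the 3 genes with a called interaction, the 250 bases before the gene start are shown, from RefSeq on build GRCm38.p6 and read along the gene's strand, because DREAM binds DNA. Capitals mark GTCA or its reverse complement TGAC, the core of the element that DREAM is known to bind. The windows are chr1:170976072-170976321 on the minus strand for Fcgr2b, chr1:170927584-170927833 on the minus strand for Fcrla and chr7:4063205-4063454 on the minus strand for Lair1.
Fcgr2b: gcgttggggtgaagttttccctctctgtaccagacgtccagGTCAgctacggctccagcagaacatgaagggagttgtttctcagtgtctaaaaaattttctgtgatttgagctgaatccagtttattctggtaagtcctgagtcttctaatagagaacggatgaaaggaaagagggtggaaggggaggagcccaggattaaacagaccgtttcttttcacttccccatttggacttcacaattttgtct
Fcrla: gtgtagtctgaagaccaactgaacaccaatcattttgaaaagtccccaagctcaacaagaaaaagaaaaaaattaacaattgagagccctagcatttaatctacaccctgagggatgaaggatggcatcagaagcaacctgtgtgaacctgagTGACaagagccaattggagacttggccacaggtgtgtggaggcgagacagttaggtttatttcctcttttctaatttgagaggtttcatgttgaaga
Lair1: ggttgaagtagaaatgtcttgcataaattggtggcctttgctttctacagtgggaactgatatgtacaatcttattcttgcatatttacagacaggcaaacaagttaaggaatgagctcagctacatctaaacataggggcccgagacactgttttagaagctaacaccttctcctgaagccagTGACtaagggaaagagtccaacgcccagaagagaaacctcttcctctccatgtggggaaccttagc
Each of these windows holds 1 such core. All 10 receptor genes matched a promoter entry, in 11 windows since Siglecg has a pair, and 11 of 11 windows held at least 1 core, as did 80.2% of the 32851 windows of this length. Of 4 further motifs searched on both strands, AGGAAG, a core that ETS family factors read, was in 7 of 11 receptor windows and 29.5% of all windows, and the E-box CAGGTG was in 3 of 11 and 17.2%. A loose NF-κB site pattern, GGGA and CC with 4 bases between, was in 2 of 11 receptor windows and 17.6% of all windows. The octamer ATTTGCAT was in 0 of 11 and 1.6%. A match describes letters only and says nothing on binding.

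The genes that carry the receptors' signal were measured beside them. Of 15 measured phosphatases, adaptors and kinases downstream of the receptors, 11 were called lower and 2 higher with stimulation in transgenic cells. In wild type cells 10 were lower and 2 higher. Over all genes 23.3% were called lower in transgenic and 24% in wild type cells. With array medians subtracted the split was 7 lower and 4 higher in transgenic and 7 lower and 6 higher in wild type cells. On that scale 8104 of all 45037 probe sets were called lower and 22217 higher in transgenic cells. In wild type cells 8794 were lower and 21383 higher. Cblb, a ubiquitin ligase that limits antigen receptor signalling, changed by −4.71 in transgenic and −4.24 in wild type cells, and the adaptor Dok3 by −2.04 in transgenic and −2.13 in wild type cells. Ptpn6, which encodes SHP-1, fell by 1.21 in transgenic and fell by 1.26 in wild type cells, whereas Ptpn11, which encodes SHP-2, rose by 0.32 in transgenic and by 0.33 in wild type cells, each direction the same with array medians subtracted and on deposited values. Inpp5d, which encodes SHIP-1, the phosphatase of FcγRIIB, was called lower in stimulated transgenic cells (−0.32 ± 0.067, adjusted p = 0.0275), the opposite direction to Fcgr2b. With stimulation Inpp5d fell by 0.73 in transgenic and fell by 0.46 in wild type cells, but with array medians subtracted the changes were 0.08 in transgenic cells, not called, and 0.35 in wild type cells, called. Ptpn22, a phosphatase that restrains Src family kinases, was higher in transgenic cells in both states (0.67, adjusted p = 0.00903 in stimulated cells, and 0.81, adjusted p = 0.000822 in unstimulated cells). Of the 15, 2 were called for genotype in stimulated cells, against 2.34% of all genes, and 4 in unstimulated cells, against 10.4%.

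Ligands and the enzymes that make them were measured as 8 genes. Of these, 5 were called lower and 1 higher with stimulation in each genotype, beside 23.3% and 24% of all genes lower. With array medians subtracted 3 were lower and 3 higher in each genotype. On that scale 8104 of 45037 probe sets were lower and 22217 higher in transgenic cells, and 8794 and 21383 in wild type cells. Cmah, which makes the glycolyl form of sialic acid that mouse CD22 prefers, fell 7.32-fold in transgenic and 12.9-fold in wild type cells. Its interaction of 0.84 ± 0.17 (adjusted p = 0.0242) was the single one called in this list. St6gal1, which adds the sialic acid linkage that CD22 reads, was lower in unstimulated transgenic cells (−0.33, adjusted p = 0.0383). The antigen receptor and its activating arm also fell with stimulation, 11 of 11 genes in transgenic and 10 of 11 in wild type cells. With array medians subtracted 4 were called lower and 3 higher in transgenic and 5 lower and 3 higher in wild type cells. These counts stand beside the shares over all features given above for each scaling. The median change of these 11 genes was −0.79 in transgenic and −0.95 in wild type cells, beside 0.08 over all genes in each; with array medians subtracted it was −0.14 in each, beside 0.28 over all genes in transgenic and 0.26 in wild type cells. Cr2, the complement receptor that lowers the activation threshold, fell 14.0-fold in transgenic and 16.1-fold in wild type cells and was higher in stimulated transgenic than in stimulated wild type cells (0.53 ± 0.071, adjusted p = 0.00138). Of 8 other inhibitory receptors of leukocytes, 5 were called lower and 1 higher with stimulation in transgenic cells. In wild type cells 6 were called lower and 1 higher. Their median change was −0.78 in transgenic and −0.51 in wild type cells. These counts were the same with array medians subtracted, and on deposited values 7 were lower and none higher in each genotype. After quantile normalization 23.3% of all genes were called lower in transgenic and 24% in wild type cells. On deposited values most probe sets were called lower, 29226 of 45037 in transgenic and 29192 in wild type cells. In unstimulated cells 2 (Cd300a, 0.84, and Cd33, 0.51) were called higher in the transgenic group and none lower.

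Activating Fc receptors and paired partners, 8 genes, moved together by genotype in unstimulated cells: 7 were called higher in the transgenic group and none lower, with a median of 0.89 beside 0.01 over all genes. Fcgr3 was higher by 1.30 and Tyrobp, the DAP12 signalling adaptor, by 1.29. In stimulated cells Tyrobp alone was called higher (0.95 ± 0.14, adjusted p = 0.00258). Markers of other cells moved mostly the same way. In unstimulated cells 14 of 16 myeloid, 9 of 10 granulocyte and 5 of 13 T and NK cell markers were called higher in the transgenic group. So were 8 of 10 marginal zone B cell markers and 8 of 10 plasma cell markers, and none in these lists was lower. Of 6 erythroid markers 5 were called higher and 1 lower (median 1.86). Of 5 follicular B cell markers 1 was called higher and 1 lower (median −0.01). Among 8 B cell markers none was higher and 1 was lower. Over all genes 10.4% were called in either direction. The summed level of the myeloid markers was 14.29 to 14.69 in unstimulated transgenic and 13.37 to 13.77 in unstimulated wild type cells, and 11.36 to 11.98 in stimulated transgenic and 10.44 to 10.82 in stimulated wild type cells. The summed granulocyte level was 13.26 to 13.80 in unstimulated transgenic and 9.56 to 9.78 in unstimulated wild type cells. S100a8, a granulocyte gene, read 11.84 to 12.25 in unstimulated transgenic and 7.03 to 7.62 in unstimulated wild type cells, above the array medians in both groups. Lair1, Pirb and Cd300lf are also expressed by myeloid cells, and the part of these cells in the differences of these genes was not tested.

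In stimulated cells 5 of 16 myeloid markers, 3 of 10 granulocyte markers, 4 of 10 marginal zone markers and 7 of 10 plasma cell markers were called higher in the transgenic group. So was 1 of 13 T and NK cell markers, and none in these lists was lower. Of 6 erythroid markers none was called. Of 5 follicular B cell markers none was higher and 1 was lower (median −0.29), and of 8 B cell markers none was higher and 1 was lower. Over all genes 2.34% were called in either direction. Csf1r, a macrophage gene, read 6.43, 6.79 and 6.28 in stimulated transgenic cells, against 5.91, 6.10 and 5.79 in stimulated wild type cells. C1qa, another, was below the array median in both stimulated groups (4.49 to 4.73 in transgenic and 4.47 to 4.65 in wild type cells). The part of these cells in the Fcgr2b difference of stimulated cells was not tested.

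**Figure D5:**
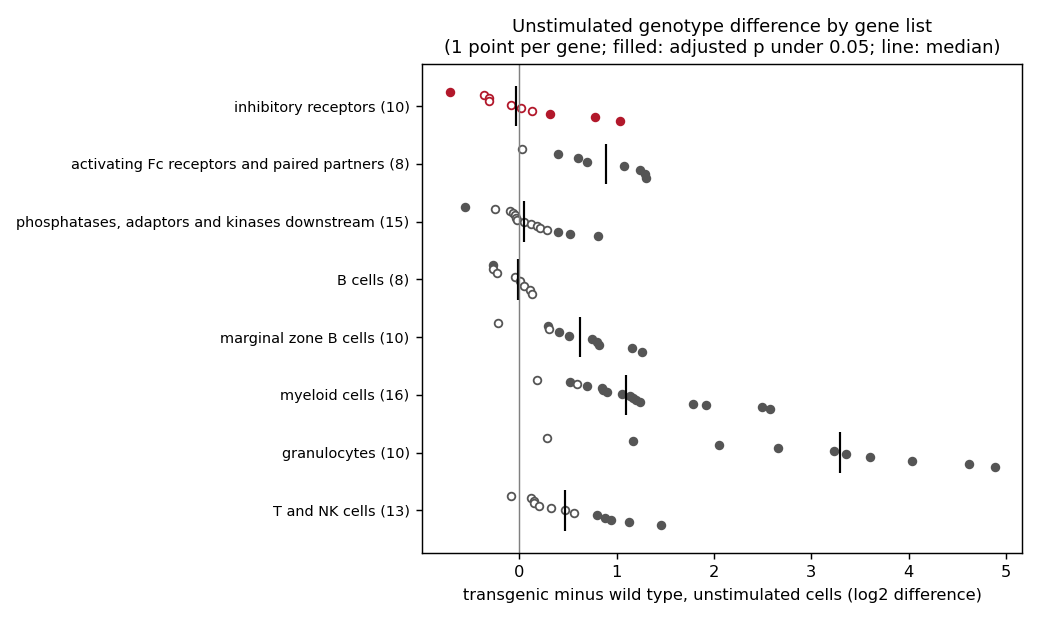
Genotype difference in unstimulated cells (horizontal axis, transgenic minus wild type, log2) for the 10 receptor genes and for lists of related genes and cell type markers; each point is a gene, filled where the adjusted p is under 0.05, and vertical lines are list medians. The receptor genes spread to both sides of 0 (median −0.04), while the activating Fc receptors (0.89), myeloid (1.09) and granulocyte (3.30) markers lie mostly to the right.

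Over the 12 arrays, the genes whose centred values lay nearest to a receptor, by root mean square difference, were found for each member as a description. Cd22 had the nearest match, Ptprc, which encodes the phosphatase CD45 of the leukocyte surface, at 0.0601. Siglecg lay nearest to Stk17b (0.0985), Btla to Tgfbr2 (0.104) and Cd72 to P2ry10b (0.115). Fcrla lay nearest to Cmah (0.195), also a gene with a called positive interaction, and Fcgr2b to Ifit1bl1 (0.193). Lair1 lay nearest to Stfa2l1 (0.111) and Pirb to Atf3 (0.198), Fcrl1 to Tm6sf1 (0.125) and Cd300lf to Itga6 (0.189).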

How the data were processed

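The deposited log2 values, 1 per probe set and array, come from RMA in the affy package. This is per the submitters' processing notes, without versions. No source says if all 12 arrays were normalized together. The table held 45101 probe sets, less 64 array controls. A single symbol was given for 34945 probe sets, 932 had several and 9160 none, and 34741 matched RefSeq by Entrez identifier. The probe set with the highest mean stood for a gene. limma 3.58.1 in R 4.3.3 was fitted with 1 coefficient per group over 12 arrays (8 residual degrees of freedom), on deposited values for genotype and interaction and on quantile-normalized values for stimulation. Precision is limited by 3 arrays a group. The procedure was tested on simulated data. The array annotation names no genome build, so no gene coordinates are given beyond the RefSeq promoter windows. The members, lists and tests were chosen with earlier results of these data known. The genes named are all 10 members, up to 4 called genes per other list and comparison, a set of cell type markers, and the nearest genes by centred values; Ptpn11, Cd79b, Kcnip3 and, in stimulated cells, Fcgr3 were added for their roles after their values were seen.

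Replicates with the same number were checked for pairing through the correlation of their deviations from group means. For the stimulated genotypes r was 0.33, 0.10 and 0.18, and for wild type stimulation 0.32, 0.18 and 0.19, all over 0.1, so the replicate block is given there beside a result whose call it changed. For the unstimulated genotypes r was 0.078, 0.070 and 0.30, and for transgenic stimulation 0.069, −0.16 and 0.12, which do not pair the samples. The alternatives were other scalings, a filter on dim probe sets, another prior, gene means, only the arrays compared, the replicate block and each array left out.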

Additional observations from a re-analysis of the deposited data

Results flagged for a closer look

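For 3 receptor genes the effect of genotype differed between stimulated and unstimulated cells by the interaction test in limma. Fcrla differed by 1.19 ± 0.14 on the log2 scale (adjusted p = 0.000989). At the probe set standing for Fcrla the transgenic group was higher in stimulated and lower in unstimulated cells, in 3 of 3 arrays each. The stimulated call held in 9 of 13 alternatives. At Fcrla probe set 1425802_a_at the unstimulated difference was −0.03 (adjusted p = 0.916) and the interaction was not called (0.53, adjusted p = 0.192). Fcgr2b differed by 0.87 ± 0.12 (adjusted p = 0.00233), with a called genotype difference in stimulated cells. Lair1 differed by −0.81 ± 0.15 (adjusted p = 0.0167), with a called genotype difference in unstimulated cells. Its stimulated levels lay below the array medians in both genotypes. Whether the array's floor limits the size of this difference was not tested.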

How the results depend on the processing

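Of 335 results for single receptor genes under alternatives that kept all arrays, 318 kept their direction and their side of the threshold, and of 360 with 1 array left out, 338 did. The interaction was called in 18 of 18 alternatives for Fcgr2b and Fcrla and in 15 of 17 for Lair1. Direction turned for Siglecg in unstimulated cells (−0.03 with medians subtracted; −0.02 to 0.06 with 1 array left out), Siglecg in stimulated cells (−0.05 to 0.06), the Siglecg interaction (−0.063 to 0.047), the Cd72 interaction (0.080 with quantile normalization, 0.01 with medians subtracted, −0.082 to 0.058 with 1 array left out), Cd22 in unstimulated cells (0.10 with gene means), the Fcrl1 interaction (0.17 with gene means), and Fcgr2b with stimulation in transgenic cells (0.21 with medians subtracted). The cause was not tested. With gene means the calls of Fcgr2b in unstimulated cells (0.26, adjusted p = 0.0149) and of Pirb (0.59, adjusted p = 0.0479) and Fcrl1 (0.49, adjusted p = 0.000363) in stimulated cells were added.

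Of the members, 5 were called in stimulated cells with gene means, against 3; leaving out 1 array gave 2 to 3 there, 3 to 6 in unstimulated cells (6 without wild type replicate 3), 2 to 3 for the interaction, and 10 for each stimulation. Probe sets called in unstimulated cells numbered 4256, against 1908 with only the 6 arrays compared and 2174 to 7518 with 1 array left out (2611 without transgenic replicate 1, 2174 without 3, 7518 without wild type replicate 3). In stimulated cells they numbered 839, against 452 to 597 with 1 array left out (wild type replicates 1, 2 and 3 gave 551, 509 and 452, transgenic replicates 1 and 2 gave 555 and 488), and for the interaction 710, against 388 to 1418 (stimulated wild type replicates 1, 2 and 3 gave 446, 388 and 419, stimulated transgenic replicates 1 and 2 gave 428 and 392, unstimulated transgenic replicate 3 gave 407 and unstimulated wild type replicate 3 gave 1418). With a filter on dim probe sets, which tests fewer of them, 15519 were called with stimulation in transgenic and 15818 in wild type cells, against 24840 and 25561, and leaving out 1 array gave 22439 to 23174 and 23263 to 25108. Scaling moved the split of higher and lower calls: with stimulation 13556 and 11284 in transgenic cells, against 6181 and 29226 on deposited values and 22217 and 8104 with medians subtracted; 13813 and 11748 in wild type cells, against 6363 and 29192, and 21383 and 8794; and in unstimulated cells 2013 and 2243 by genotype, against 1550 and 2719 with medians subtracted. With the replicate block, probe sets called were 4966 in unstimulated and 1000 in stimulated cells by genotype. They were 25116 in transgenic and 25766 in wild type cells with stimulation, and 767 for the interaction. In stimulated cells the block changed the call of Pirb and of Fcrla probe set 1425802_a_at. With wild type stimulation it changed the call of Lair1 probe set 1439067_at (adjusted p = 0.0535, against 0.0461). The interaction also holds the comparisons where r was not over 0.1 for every replicate number. For the interaction the block added the call of 1420464_s_at, a probe set shared by Pirb and its family (−1.09, adjusted p = 0.0134, against 0.127). No other member call changed with the block. Dim levels, such as those of Lair1 in stimulated cells, limit what can be read.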

Other observations

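Fcrla and Fcgr2b, the receptor genes with a positive interaction, lie near each other in the gene order of RefSeq GRCm38.p6, in the cluster that also holds Fcgr4 and Fcgr3. Fcgr4, an activating IgG receptor, was higher in unstimulated transgenic cells (0.70, adjusted p = 0.000316) and not called in stimulated cells (0.06, adjusted p = 0.911), with an interaction of −0.64 (adjusted p = 0.0222). Fcgr3 had an interaction of −0.63 (adjusted p = 0.256), and of the measured flanking genes Atf6 was called higher in stimulated transgenic cells (0.57, adjusted p = 0.0454), while Olfml2b, Dusp12, Cfap126 and Sdhc were called in neither state.

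Pirb and Lair1, both higher in unstimulated transgenic cells, lie in another receptor cluster of the same gene table. The measured genes outside that cluster, Ttyh1, Leng8, Leng9 and Cdc42ep5 beside Lair1 and Rps9, Tsen34, Mboat7, Tmc4 and Leng1 beside Pirb, were not called between the genotypes in either state.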
